A study of Mus musculus with 2 samples.

Results

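The 5 transcription factor genes Esrrb, Tfcp2l1, Tbx3, Nr5a2 and Prdm14 of the naive pluripotency network were followed through 2 single-cell RNA libraries of mouse embryonic stem cells. The genes were chosen by name, and all 5 were found among the 32285 genes of the deposited count tables. Both libraries are labelled as the R1 embryonic stem cell line, kept for 72 h in serum-free N2B27 medium. The library called LB was grown on gelatin with the cytokine LIF and the growth factor BMP4. The library called LBPXRS was grown on fibronectin with LIF and BMP4 plus PD0325901, an inhibitor of the kinase MEK, Xav939, an inhibitor of tankyrases that dampens WNT signalling, SB431542, an inhibitor of activin and nodal receptors, and a compound listed as Resorcyclic lactone. By the labels LIF, BMP4, the medium and the cell line were shared, whereas the inhibitors and the coating differed together and cannot be told apart. Each condition is 1 library of 1 line, so no comparison below has a replicate check and none carries a p-value.

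Naive pluripotency is the state of the cells of the preimplantation epiblast, and in culture it is held by a network of transcription factors that activate one another and are lost as cells leave for the formative and primed states. Esrrb and Tfcp2l1 are known as the points where WNT and LIF signals enter that network, Tbx3 as a further target of LIF, Nr5a2 as a nuclear receptor that recognises a DNA element close to that of Esrrb, and Prdm14 as a repressor of DNA methyltransferases and FGF receptors that is also required for the specification of primordial germ cells. T, which encodes Brachyury, marks primitive streak and early mesoderm, Hand1 marks extraembryonic and lateral mesoderm and trophoblast, and Fgf5 marks the formative and primed epiblast.

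After barcodes with fewer than 1000 genes or more than 10% mitochondrial UMIs (unique molecular identifiers, each standing for 1 captured RNA molecule) were left out, 1783 LB cells with 45490517 UMIs and 2705 LBPXRS cells with 51832444 UMIs remained. The median cell held 25418 UMIs in LB and 19058 in LBPXRS. The libraries shared 10 barcodes, 8 of them among kept cells. Both carry the same line's label, yet UMIs of Kdm5d, Uty, Ddx3y and Eif2s3y, which lie on the Y chromosome, numbered 2872 in LB and 1 in LBPXRS. The libraries may therefore differ in line or subline, which cannot be told apart from the culture, and the part of this difference in the results below was not tested. As a check of the labels, the naive pluripotent marker list (Zfp42, Klf4, Klf2, Klf5, Nanog, Dppa3, Tcl1 and Nr0b1) summed to 1589 CPM (counts per 1000000 UMIs) in LBPXRS cells and to 1436 CPM in LB cells without T, Hand1 and Fgf5. The same LB cells still held other states, with 682 CPM of the formative or primed list and 216 CPM of the mesoderm list, against 131 and 5.74 CPM in LBPXRS cells without the 3 markers.

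On the GRCm38 assembly with GENCODE vM21, Esrrb (ENSMUSG00000021255) lies at chr12:86361117-86521628 on the plus strand. Tfcp2l1 (ENSMUSG00000026380) lies at chr1:118627945-118685168 on the plus strand and Tbx3 (ENSMUSG00000018604) at chr5:119670669-119684724 on the plus strand. Nr5a2 (ENSMUSG00000026398) and Prdm14 (ENSMUSG00000042414) share chromosome 1 with Tfcp2l1, at chr1:136842571-136960448 and chr1:13113457-13127163, both on the minus strand. The antisense gene Tbx3os1 overlaps Tbx3 on the opposite strand and had 170 UMIs in both libraries together, so a share of Tbx3 reads could not be separated from it if strand was not used in counting.

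RefSeq promoters (GRCm38.p6) were available for Esrrb, Tfcp2l1 and Nr5a2, and the 250 bases before the annotated start are shown because Esrrb and Tfcp2l1 were higher in LBPXRS and Nr5a2 was not, and because the binding elements of the network's own factors can be looked for in them. Esrrb is chr12:86360867-86361116 on the plus strand, Tfcp2l1 is chr1:118627695-118627944 on the plus strand and Nr5a2 is chr1:136960449-136960698 on the minus strand, each written 5′ to 3′ along its gene. Esrrb and Nr5a2 each have another annotated start, with upstream bases at chr12:86421394-86421643 and chr1:136953631-136953880, which are not shown. Which start was used in these cells was not tested. Capitals mark the single match to a form of the element that TFCP2L1 recognises, a pair of CCNG half-sites 6 bases apart.
Esrrb: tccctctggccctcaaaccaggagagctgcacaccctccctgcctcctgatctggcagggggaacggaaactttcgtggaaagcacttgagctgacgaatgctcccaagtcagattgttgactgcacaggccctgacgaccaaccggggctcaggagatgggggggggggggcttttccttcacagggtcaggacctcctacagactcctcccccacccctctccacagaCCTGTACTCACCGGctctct
Tfcp2l1: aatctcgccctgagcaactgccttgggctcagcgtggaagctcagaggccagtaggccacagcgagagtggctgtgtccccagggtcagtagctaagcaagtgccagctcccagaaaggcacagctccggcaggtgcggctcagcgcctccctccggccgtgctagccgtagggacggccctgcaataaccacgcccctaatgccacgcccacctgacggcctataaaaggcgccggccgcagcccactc
Nr5a2: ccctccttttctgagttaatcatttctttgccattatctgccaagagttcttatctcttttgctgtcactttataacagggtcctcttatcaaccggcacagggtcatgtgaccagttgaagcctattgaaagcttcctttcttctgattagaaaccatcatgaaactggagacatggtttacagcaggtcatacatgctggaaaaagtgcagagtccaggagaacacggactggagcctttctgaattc

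Motifs were searched on both strands of 300-base windows that ended 50 bases past the start, over 32851 RefSeq promoters. The TFCP2L1 element was found in 29.5% of all promoters. Its only match among the 5 windows of Esrrb, Tfcp2l1 and Nr5a2 lay 20 bases before the Esrrb start whose sequence is shown. None of those windows held TCAAGGTCA, the element of ESRRB and NR5A2, present in 0.423% of promoters, or CTTTGA, the element of TCF7L1, present in 16.0%. The same held for TTCCNGGAA, bound by STAT3 and present in 1.15%, GGGTGTGG, bound by KLF factors and present in 3.56%, and AGGTGTGA, bound by T-box factors and present in 1.28%. A match is a run of letters and not a measured binding site.

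The first question was how far each factor differed between the culture with LIF and BMP4 alone and the culture with the inhibitors added. Esrrb, Tfcp2l1, Tbx3 and Prdm14 were higher in LBPXRS, by 2.28- to 4.72-fold, whereas Nr5a2 did not differ 2-fold. Levels are a library's total UMIs of a gene over its kept cells, as CPM with exact Poisson 95% intervals, which cover counting error only. Ratios on the log2 scale were taken after adding 1 CPM to both sides, and a gene counted as higher or lower when it differed at least 2-fold and the mean of its levels in the 2 groups was at least 5 CPM. A gene that is low in 1 group can meet this minimum through the other group alone. By that rule 4 of the 5 factors were higher in LBPXRS and 0 lower, against 669 of 9078 genes higher (7.37%) and 875 lower (9.64%). The median log2 difference was 1.40 over the 5 factors and -0.15 over all genes. With TMM scaling the all-gene split was 859 higher and 658 lower around a median of -0.01.

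Tfcp2l1, a Grainyhead-family factor and direct target of LIF and STAT3, differed most over all kept cells, though not among cells without T, Hand1 and Fgf5. It stood at 21.5 CPM (20.2 to 22.9) in LB and at 102 CPM (99.0 to 104) in LBPXRS, a log2 difference of 2.19 or 4.72-fold (4.41 to 5.06). Tbx3, the T-box factor of the network, stood at 22.8 CPM (21.5 to 24.2) in LB and at 91.7 CPM (89.1 to 94.3) in LBPXRS, 4.02-fold higher (3.76 to 4.30) and 1.96 on the log2 scale. Esrrb, an orphan nuclear receptor, stood at 23.1 CPM (21.7 to 24.5) in LB and at 62.6 CPM (60.5 to 64.8) in LBPXRS, 2.72-fold higher (2.53 to 2.92). For these 3 genes the counting intervals of the libraries lay far apart.

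Prdm14, a PR-domain factor, had few UMIs in either library, 214 in LB and 555 in LBPXRS. Its level was 4.70 CPM (4.10 to 5.38) in LB and 10.7 CPM (9.84 to 11.6) in LBPXRS, 2.28-fold higher (1.94 to 2.68) and 1.04 on the log2 scale, which places it close to the 2-fold limit. Nr5a2, the other nuclear receptor, had 479 UMIs in LB and 477 in LBPXRS. Its level was 10.5 CPM (9.61 to 11.5) in LB and 9.20 CPM (8.40 to 10.1) in LBPXRS, a log2 difference of -0.18. The intervals of the levels overlapped, while that of the ratio, 0.874 (0.768 to 0.994), lay just below equal levels.

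**Figure D1:**
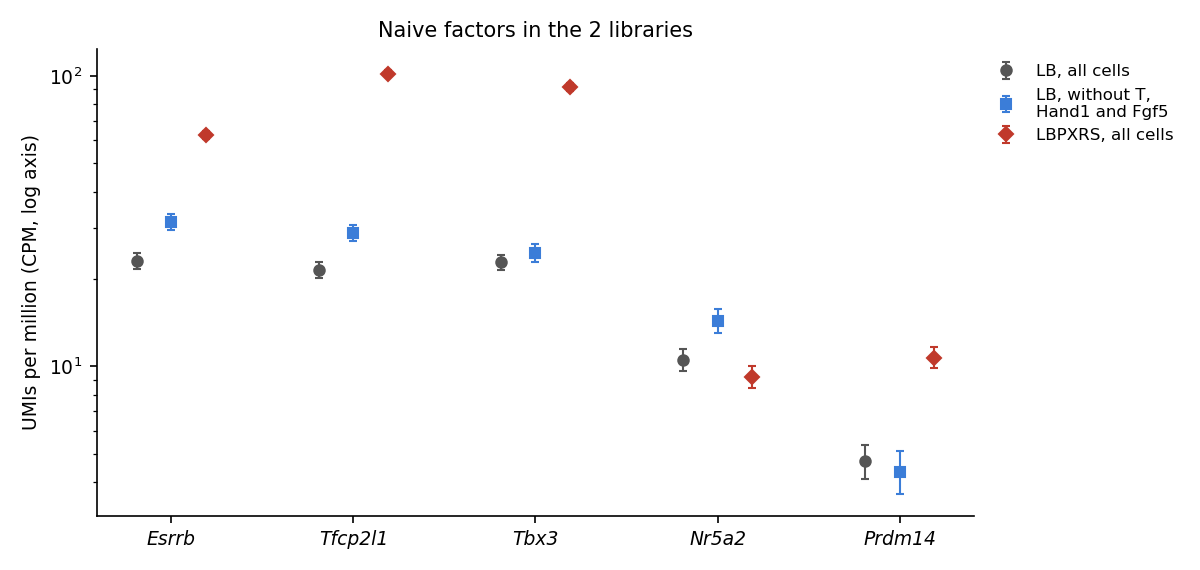
Level of each factor in CPM, on a log axis, in all kept LB cells, in LB cells without T, Hand1 and Fgf5 and in all kept LBPXRS cells, with bars for exact Poisson 95% intervals of counting error. Esrrb, Tfcp2l1, Tbx3 and Prdm14 are higher in LBPXRS than in either set of LB cells, and Nr5a2 is not.

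The share of cells in which a factor was found followed the summed levels. To compare cells at 1 depth, 5000 UMIs were drawn from each, and cells with fewer (50 in LB, 84 in LBPXRS) were not used. The share of cells with Tfcp2l1 was then 9.87% in LB (exact binomial 95% interval 8.50 to 11.4) and 38.0% in LBPXRS (36.2 to 39.9). Esrrb was found in 9.98% (8.61 to 11.5) and 25.6% (24.0 to 27.4), and Tbx3 in 9.64% and 34.1%. Prdm14 was found in 2.02% and 5.11%, and Nr5a2 in 4.90% and 4.58%. Without thinning the shares for Tfcp2l1 were 29.2% and 79.8%, those for Esrrb 32.8% and 65.3%, those for Tbx3 29.8% and 74.3%, those for Prdm14 9.65% and 17.3% and those for Nr5a2 19.7% and 15.6%. At the thinned depth, cells in which none of the 5 factors was detected made up 71.1% (69.0 to 73.3) in LB and 28.4% in LBPXRS. Exactly 2 of them were found together in 5.19% and 22.6% of cells, and exactly 3 in 1.10% and 5.72%.

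Other genes of the network did not all move with these factors. Of 9 further naive genes that met the minimum level, LBPXRS held at least 2-fold more of 4, Klf4, Nanog, Tcl1 and Nr0b1, and less of 1, Dppa3, and the list's median log2 difference was 0.73. Between cells without T, Hand1 and Fgf5, 1 of 9 was higher, Klf4, and 1 lower, Dppa3, with a median of 0.35. Zfp42, which encodes REX1, was at 401 CPM in LB and 515 CPM in LBPXRS, and Klf4, a Krüppel-like factor activated by LIF, at 38.1 and 212 CPM. Of the 3 core pluripotency factors none differed 2-fold, with Pou5f1 at 719 CPM in LB and 990 CPM in LBPXRS. Likewise 0 of 5 genes that help cells leave the naive state differed 2-fold, among them Tcf7l1, the repressor of Esrrb, at 26.6 CPM in LB and 35.9 CPM in LBPXRS. Of 11 genes of LIF and WNT signalling, Axin2, a direct WNT target, was lower in LBPXRS, at 0.579 CPM against 16.8 CPM in LB.

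Of the genes tied to PRDM14, the 3 Dnmt3 genes were lower in LBPXRS. Among the 5 of that list that met the minimum level, 3 were lower, the DNA methyltransferase genes Dnmt3b at 5.48 CPM against 116 CPM in LB, Dnmt3a at 6.10 against 26.6 CPM, and their cofactor Dnmt3l at 12.9 against 30.3 CPM. The FGF receptor gene Fgfr1 stood at 25.0 CPM in LBPXRS and 49.2 CPM in LB, and the partner gene Cbfa2t2 at 28.7 and 21.0 CPM. Within LB, Dnmt3b stood at 79.0 CPM in cells with T, 52.9 CPM in cells with Hand1 and 132 CPM in cells without T, Hand1 and Fgf5, and Dnmt3l was lower with both markers, at 3.36 and 3.15 CPM against 41.0 CPM. In cells with Hand1, 2 of the list's 6 genes were higher, Fgfr1 and Fgfr2, and 3 lower, Cbfa2t2, Dnmt3b and Dnmt3l. With T and with Fgf5, Dnmt3l was the only 1 of 5 that was lower and 0 were higher. Of the paralogues of the 5 factors, 4 had enough UMIs and none differed 2-fold, with Esrra at 11.6 CPM in LB and 11.2 CPM in LBPXRS.

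The LB library held cells of several kinds, so the comparison was repeated on the cells of each library in which T, Hand1 and Fgf5 were all at 0 UMIs after thinning, 1203 in LB and 2620 in LBPXRS. Esrrb was then 31.4 CPM (29.5 to 33.4) in LB and 2.00-fold higher (1.86 to 2.14) in LBPXRS, a log2 difference of 0.97 on the scale with 1 CPM added, just under the 2-fold limit. Tfcp2l1 was 3.53-fold higher and Tbx3 3.74-fold higher. Prdm14 was 2.48-fold higher (2.06 to 3.02). The count was 3 of 5 higher, against 7.12% of 8948 genes, and 0 lower, against 7.71%. With TMM scaling Esrrb reached 1.10 and the count was 4, and the all-gene split was 818 higher and 518 lower in place of 637 and 690.

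Nr5a2 separated from the other factors in this comparison. It stood at 14.3 CPM (13.1 to 15.7) in the LB cells without T, Hand1 and Fgf5 and at 0.643 of that level (0.564 to 0.732) in LBPXRS, a log2 difference of -0.59. In a separate alternative, added after the values were seen, all kept LBPXRS cells were compared with the 767 cells of the naive pluripotent-like LB cluster, whatever their T, Hand1 and Fgf5, and Nr5a2 was lower in LBPXRS by more than 2-fold, with a log2 difference of -1.11. In that same view the log2 differences were 0.42 for Esrrb, 0.82 for Prdm14, 1.26 for Tfcp2l1 and 1.61 for Tbx3, so 2 factors were at least 2-fold higher and 1 lower.

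Within LB the factors were compared between cells in which a marker of another state was found at the thinned depth and the 1203 cells in which none was. A cell counted as positive with at least 1 UMI of the marker, which gave 310 cells with T, 241 with Hand1 and 36 with Fgf5. At full depth the 1203 cells were not free of the markers, since 167 of them (13.9%) held T, 118 (9.81%) Hand1 and 65 (5.40%) Fgf5. In LBPXRS 1 cell was positive for T and 0 for Hand1 and Fgf5, so no such comparison was made there. Over all its kept cells LBPXRS held 3 UMIs of T, 0 of Hand1 and 1 of Fgf5, against 4589, 3824 and 233 in LB. The median depth was 26491 UMIs in cells without the 3 markers, 22973.5 with T, 24960 with Hand1 and 23882 with Fgf5.

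In LB cells with T, Esrrb, Tfcp2l1, Tbx3 and Nr5a2 were lower and Prdm14 was not. Esrrb had 25 UMIs there, 3.36 CPM (2.17 to 4.95) against 31.4 CPM, 9.35-fold lower (6.29 to 14.5). Its log2 difference was -2.89, and with another random draw of the 5000 UMIs, which changed the cells called positive, it was -2.13. Nr5a2 was 8.22-fold lower at 1.74 CPM, Tfcp2l1 6.72-fold lower at 4.29 CPM and Tbx3 3.15-fold lower at 7.78 CPM. Prdm14 stood at 8.46 CPM (6.50 to 10.8) against 4.31 CPM (3.62 to 5.09), a log2 difference of 0.83, which was 1.96-fold higher (1.43 to 2.66) and did not reach the 2-fold limit. It reached a log2 difference of 1.04 when the 5% deepest cells were left out. By the size rule 4 of 5 were lower, against 4.08% of 9088 genes, and 0 higher, against 5.41%. Esrrb, Tfcp2l1 and Nr5a2 were under 5 CPM with T and met the minimum only through the cells without the markers, so the count is a description. The median log2 difference was -2.48 for the factors and 0.14 for all genes, and with TMM scaling the all-gene split moved from 492 higher and 371 lower to 355 and 455.

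Cells with Hand1 were also low in Esrrb, Tfcp2l1 and Nr5a2, but not in Tbx3. Esrrb stood at 2.21 CPM (1.21 to 3.70), 14.2-fold below cells without the 3 markers, Tfcp2l1 at 2.05 CPM, 14.1-fold below, and Nr5a2 at 1.10 CPM from 7 UMIs, 13.0-fold below. Tbx3, which is also expressed in mesoderm and extraembryonic tissue of the embryo, stood at 32.6 CPM (28.3 to 37.4) against 24.5 CPM (22.8 to 26.3), 1.33-fold higher (1.14 to 1.55). Prdm14 stood at 2.84 CPM (1.68 to 4.48) against 4.31 CPM, and its ratio interval included equal levels. Of the 4 factors that met the minimum level 3 were lower, against 5.27% of 9151 genes, and 0 higher, against 9.33%. The 3 lower factors met the minimum only through the cells without the markers, and Prdm14 did not meet it. TMM scaling moved the all-gene split from 854 higher and 482 lower to 553 and 656.

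The 36 cells with Fgf5 gave few UMIs. Tfcp2l1 had 11 UMIs, 12.2 CPM against 28.9 CPM, and Esrrb had 7 UMIs, 7.73 CPM (3.11 to 15.9) against 31.4 CPM. Tbx3 had 3 UMIs and a ratio of 0.135 (0.0278 to 0.396), and Nr5a2 had 2 UMIs and a ratio of 0.154 (0.0186 to 0.560). Prdm14 was not found. Counted at a floor of 3 UMIs over the group it was 1.30-fold lower, and the upper end of its ratio interval was 0.958. The 4 factors that met the minimum level were at least 2-fold lower, against 4.33% of 8988 genes, and 0 were higher, against 4.85%. When only the 25 cells with Fgf5 and neither other marker were used, Tfcp2l1 was at -0.85 on the log2 scale, in place of -1.18, and the count was 3. With at least 2000 genes and 0.5% to 10% mitochondrial UMIs Tfcp2l1 was at -3.93. Without the 5% deepest cells Nr5a2 was at -3.99 in place of -2.26, Tbx3 at -3.82 in place of -2.56 and Esrrb at -2.95 in place of -1.89. That value for Nr5a2 is that of 0 UMIs, set by the 1 CPM added, and not a measured ratio. Tbx3 and Nr5a2 met the minimum only through the cells without the markers. The all-gene split was 436 higher and 389 lower, or 244 and 553 with TMM scaling.

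**Figure D2:**
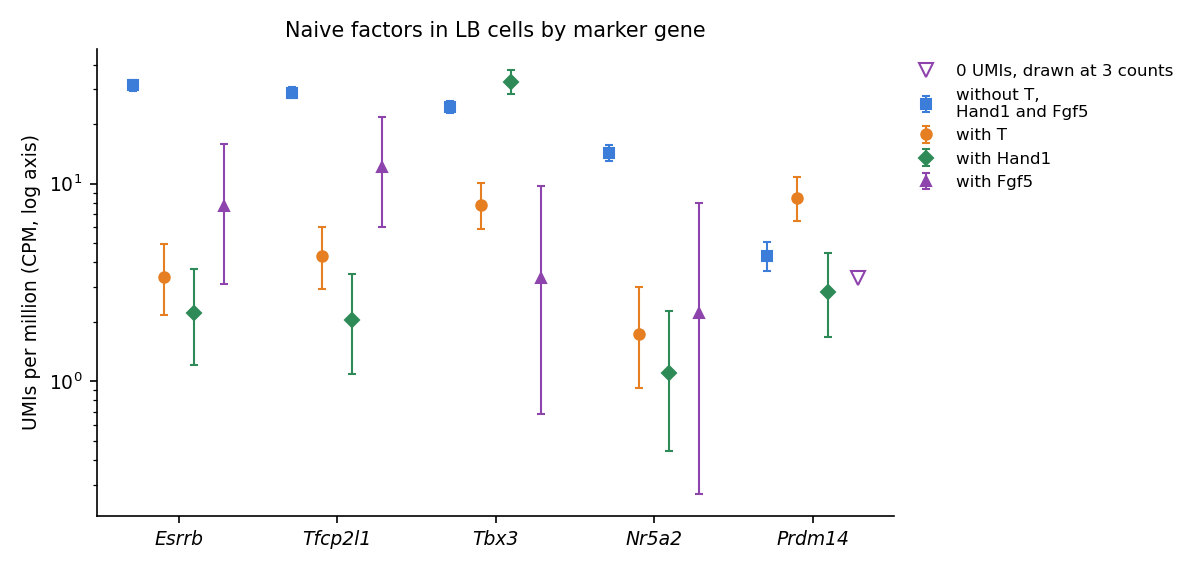
Level of each factor in CPM in LB cells without T, Hand1 and Fgf5 and in cells positive for each of these markers, on a log axis with exact Poisson 95% intervals; the open triangle is Prdm14 with Fgf5, at 0 UMIs and drawn at the floor of 3. Esrrb, Tfcp2l1 and Nr5a2 are lower in every marker-positive group, Tbx3 stays at 32.6 CPM with Hand1, and Prdm14 is at 8.46 CPM with T.

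The shares of cells with a UMI at the thinned depth had the same order for Esrrb, Tfcp2l1 and Nr5a2 between cells without the markers and both larger groups. Esrrb was found in 13.6% of cells without the 3 markers, 1.29% of cells with T and 1.66% of cells with Hand1, and Tfcp2l1 in 13.5%, 2.26% and 0.415%. Nr5a2 was found in 6.73%, 0.968% and 0.830%. Free RNA in the droplets was not measured, so these low shares with T or Hand1 were not read as expression. Tbx3 was found in 10.4%, 4.19% and 13.7%. Prdm14 was found in 1.66% (1.02 to 2.56), 4.52% (2.49 to 7.46) and 1.24% (0.257 to 3.59), and all 3 intervals overlapped one another.

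The other pluripotency genes gave a background for these groups. Of 10 further naive genes, 7 were lower in cells with T and 1 higher, the homeobox gene Gbx2 at 7.92 CPM against 2.41 CPM. In cells with Hand1 8 of 9 were lower, and in cells with Fgf5 8 of 9 were lower, the exception being Nanog at 96.1 CPM against 89.1 CPM. Sox2 was lower with T, at 25.0 CPM against 165 CPM, and also at least 2-fold lower with Hand1 and with Fgf5. Pou5f1 was lower with Hand1 only. Tbx2, the closest relative of Tbx3, was higher with Hand1, at 11.0 CPM against 0.968 CPM. Markers of other cell types moved with the groups too. The mesoderm list summed to 216 CPM in cells without the 3 markers, 963 with T, 1413 with Hand1 and 368 with Fgf5, and 5 of 10 of its genes that met the minimum level were higher with T and 0 lower, 9 of 11 higher and 1 lower with Hand1, and 2 of 10 higher and 3 lower with Fgf5. The list includes T and Hand1, which formed the groups, so part of these sums and counts was fixed by the choice of cells. T made up 534 CPM of the sum with T, and Hand1 540 CPM of the sum with Hand1. With Fgf5, T made up 198 CPM of the sum, against 14.7 CPM in the cells without the 3 markers. The trophoblast list, whose defining gene Elf5 was at 0 in these groups, summed to 111, 279, 988 and 46.4 CPM, with 4 of 5 genes higher with Hand1. The fibroblast list, with Lum at 0, summed to 9.90, 5.64, 44.9 and 6.63 CPM, and the germ cell list to 74.3, 115, 38.1 and 21.0 CPM. In the same order, the primitive endoderm list summed to 8.31, 14.1, 33.4 and 23.2 CPM. The formative or primed list, which includes Fgf5, summed to 682, 387, 207 and 809 CPM. The part of cells of these types in the levels of the 5 factors was not tested.

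Tbx3 and Prdm14 had opposite orders in cells with T but no Hand1 and cells with Hand1 but no T, some of which also held Fgf5. In the 264 cells with T and no Hand1, Tbx3 stood at 5.38 CPM (3.72 to 7.51) and Prdm14 at 9.01 CPM (6.83 to 11.7). In the 195 cells with Hand1 and no T, Tbx3 stood at 35.0 CPM (30.1 to 40.5) and Prdm14 at 2.30 CPM (1.19 to 4.01). The 46 cells with both held 21.3 CPM of Tbx3 (13.7 to 31.7) and 5.33 CPM of Prdm14 (1.96 to 11.6), an interval that overlapped both other groups.

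The amount of each marker was looked at next. By T at the thinned depth, 113 cells held 1 UMI, 137 held 2 to 4 and 60 held at least 5. Prdm14 stood at 3.35 CPM (1.53 to 6.36), 10.2 CPM (7.06 to 14.2) and 14.0 CPM (8.55 to 21.6) in that order, with overlapping intervals in the upper 2 bins. The share of cells with Prdm14 at the thinned depth was 4.42%, 4.38% and 5.00%, with no such order. In the same bins Tbx3 stood at 13.8, 5.39 and 2.10 CPM. By Hand1, 94 cells held 1 UMI, 99 held 2 to 4 and 48 held at least 5. Tbx3 stood at 22.9 CPM (17.2 to 29.9), 31.3 CPM (24.9 to 38.8) and 52.4 CPM (40.9 to 66.2), with overlapping intervals in the lower 2 bins. Its thinned shares were 13.8%, 11.1% and 18.8% (8.95 to 32.6), without that order, and its shares without thinning 28.7%, 44.4% and 52.1%. Esrrb stood at 3.82, 1.51 and 0.749 CPM by Hand1, from 9, 4 and 1 UMIs, with overlapping intervals. By T it stood at 7.45, 0.599 and 2.10 CPM, from 20, 2 and 3 UMIs. Tfcp2l1 stood at 4.24 and 1.13 CPM by Hand1, from 10 and 3 UMIs, and was not found in the cells with most Hand1.

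**Figure D3:**
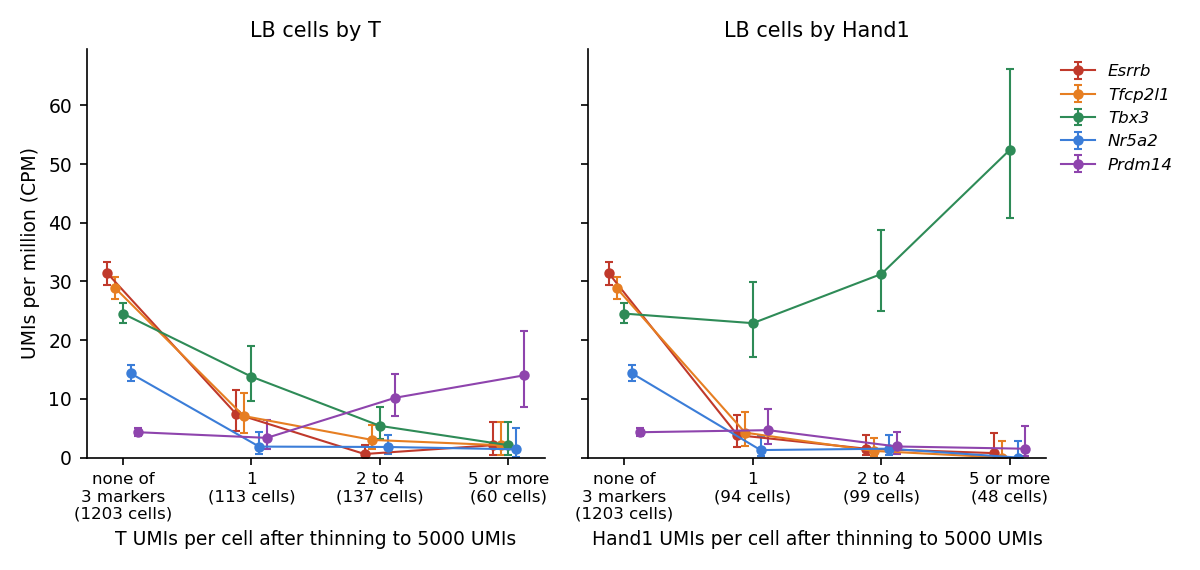
Level of each factor in CPM by the number of T or Hand1 UMIs per LB cell at the thinned depth, with exact Poisson 95% intervals. Prdm14 is at 3.35 CPM with 1 UMI of T and 14.0 CPM with at least 5, and Tbx3 is at 22.9 CPM with 1 UMI of Hand1 and 52.4 CPM with at least 5.

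The clusters were built without the 5 factors, T, Hand1 and Fgf5. Each library was clustered on its own, into 7 clusters in LB and 6 in LBPXRS, and a cluster was named for a cell type where at least 3 of that type's listed markers, and more than of any other type, were 2-fold higher than in the rest of the library, where the median log2 difference of the type's markers with a mean of at least 5 CPM was at least 1, and where the 10 genes with the largest fold held more markers of that type than of any other. The last condition was set after the clusters were seen. LB clusters 3, 5 and 7 and the 6 LBPXRS clusters stayed unnamed. In LB, cluster 1 with 767 cells (43.0%) was naive pluripotent-like, cluster 2 with 317 cells (17.8%) formative or primed pluripotent-like, cluster 4 with 182 cells (10.2%) primitive streak and mesoderm-like and cluster 6 with 62 cells (3.48%) trophoblast-like. The unnamed cluster 3 with 209 cells (11.7%) was led by Sprr2a3, Ptgs1 and T, cluster 5 with 192 cells (10.8%) by Pitx1, Hoxb6 and Hoxc8, and cluster 7 with 54 cells (3.03%) and a lower median depth of 10536 UMIs by Slc7a3, Spp1 and Pmel.

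Esrrb, Nr5a2 and Tfcp2l1 were highest in the same 2 LB clusters. Esrrb stood at 46.5 CPM (43.7 to 49.6) in cluster 1 and 22.6 CPM (12.4 to 37.9) in cluster 7, and between 1.26 and 3.89 CPM in the others. Nr5a2 stood at 30.7 CPM (18.5 to 47.9) in cluster 7 and 21.0 CPM (19.0 to 23.0) in cluster 1, whose intervals overlapped, and between 0.418 and 1.32 CPM in the others. Tfcp2l1 followed the same order as Nr5a2, with 64.6 CPM (46.2 to 88.0) in cluster 7, 42.0 CPM (39.2 to 44.8) in cluster 1 and 0.502 to 4.13 CPM elsewhere. Even in cluster 1, Esrrb and Tfcp2l1 stayed below their LBPXRS levels of 62.6 and 102 CPM.

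Tbx3 had a different distribution. It stood at 42.2 CPM (36.0 to 49.1) in the primitive streak and mesoderm-like cluster 4, at 38.8 CPM in cluster 7, 30.3 CPM in cluster 5, 29.3 CPM (27.0 to 31.7) in cluster 1 and 28.8 CPM in the trophoblast-like cluster 6. It was low only in cluster 2, at 1.65 CPM, and in cluster 3, at 2.85 CPM. The level in cluster 4 lay above that in cluster 1 beyond counting error, while clusters 1, 5 and 6 could not be ordered by their counts. That order depended on the resolution. At a Leiden resolution of 1, a cluster of 110 cells led by Mesp1, Mesp2 and Lhx1 stood at 15.7 CPM (11.0 to 21.7), below cluster 1, and a cluster of 74 cells led by Vstm2b, Kdr and Asb4 at 79.2 CPM (66.5 to 93.6).

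Prdm14 was highest in LB cluster 3, at 17.3 CPM (13.7 to 21.6), and these 209 cells held 79 of the library's 214 Prdm14 UMIs. Cluster 7 stood at 6.46 CPM (1.76 to 16.5) from 4 UMIs and cluster 1 at 5.62 CPM (4.65 to 6.73) from 118 UMIs, with overlapping intervals. The formative or primed pluripotent-like cluster 2 had 3 Prdm14 UMIs, 0.354 CPM. Cluster 3 also held 124 CPM of Dnd1, an RNA-binding protein gene of germ cells, 36.9 CPM of Tfap2c, 16.2 CPM of Prdm1 and 13.8 CPM of Nanos3, which are all known for primordial germ cells. The other 3 genes of the germ cell list were not higher there than in the rest of LB, with Kit at 6.58 CPM, Ddx4 at 0.658 CPM from 3 UMIs and Dazl not found. Cluster 1 held 32.3 CPM of Tfap2c and 11.2 CPM of Prdm1, so both genes were found there too.

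**Figure D4:**
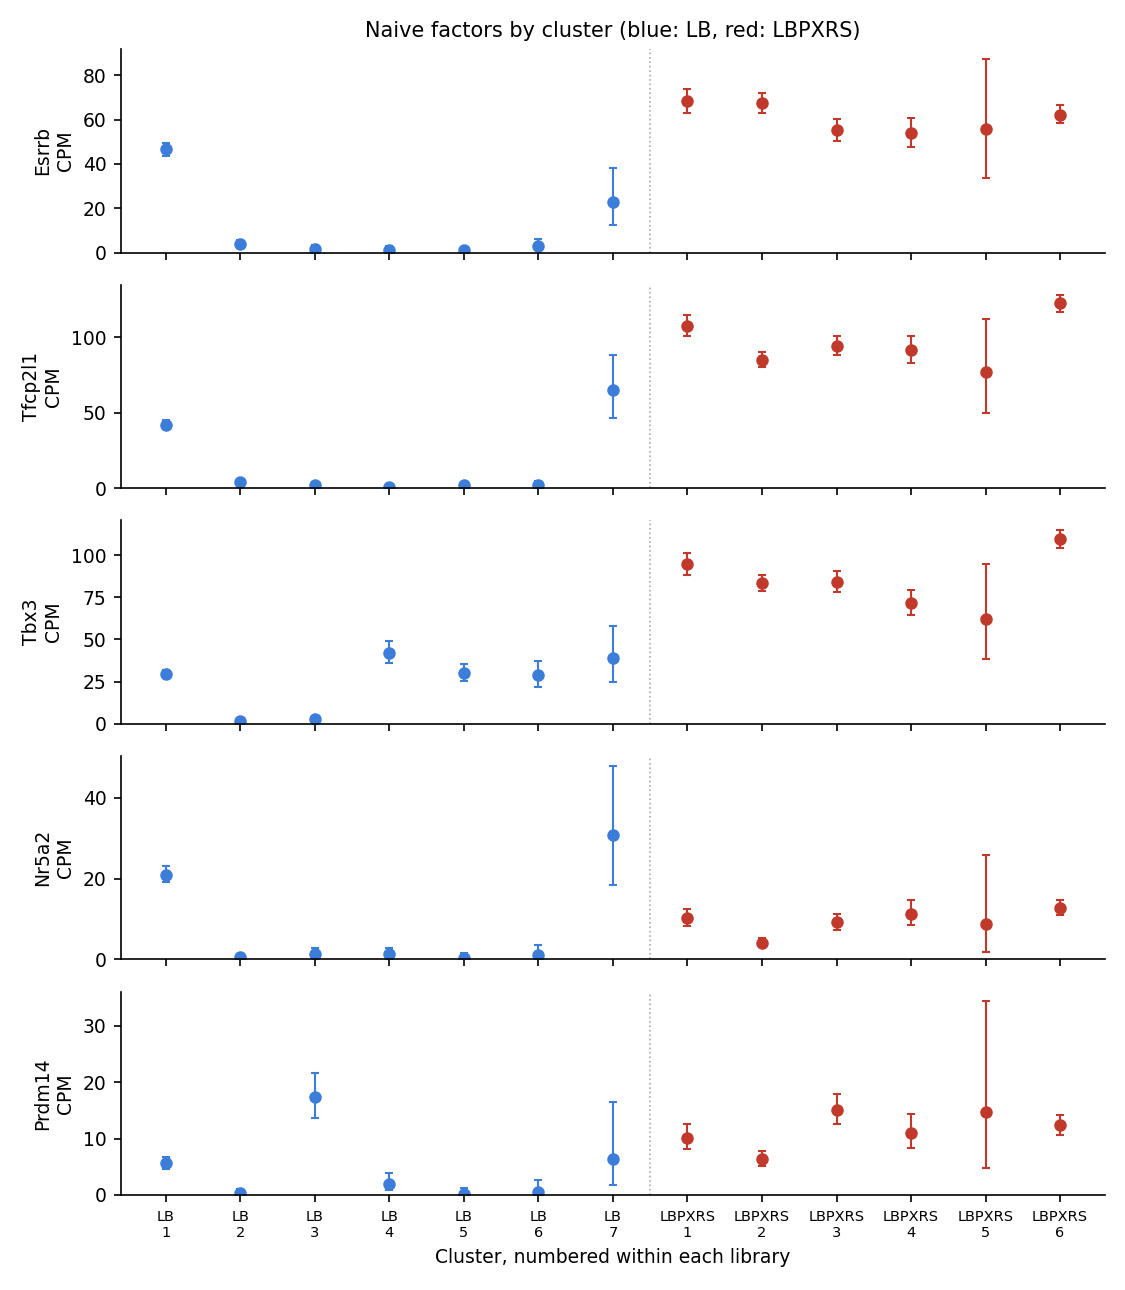
Level of each factor in CPM in each cluster of LB and LBPXRS, with exact Poisson 95% intervals, in clusters formed without these factors. In LB, Esrrb, Tfcp2l1 and Nr5a2 are high in clusters 1 and 7, Tbx3 is low only in clusters 2 and 3, and Prdm14 is highest in cluster 3.

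Between the 6 LBPXRS clusters the levels of Esrrb, Tfcp2l1 and Tbx3 varied less than 2-fold at this resolution. At a resolution of 1 Tfcp2l1 ranged from 40.2 CPM (23.8 to 63.5) in a cluster of 25 cells to 144 CPM (133 to 156) in 1 of 251 cells. The level of 40.2 CPM came from 18 UMIs, and all 25 cells of that cluster had a low mitochondrial share. Esrrb ranged from 53.9 CPM to 68.3 CPM over the 6 clusters and Tbx3 from 61.9 to 109 CPM. Tfcp2l1 was highest in cluster 6, the 861 cells led by Krt8 and Krt18, at 122 CPM (117 to 128), and stood at 85.0 CPM (80.2 to 89.9) in cluster 2, the 714 cells led by Gata2 and Dusp4. Nr5a2 stood at 12.8 CPM (11.1 to 14.7) in cluster 6 and 4.08 CPM (3.09 to 5.29) in cluster 2. Prdm14 was lowest in cluster 2 as well, at 6.30 CPM (5.05 to 7.76), and highest in cluster 3, the 416 cells led by Chac1 and Trib3, at 15.1 CPM (12.6 to 17.9). Cluster 2 included 79 of the 168 kept LBPXRS cells with a low mitochondrial share, and cluster 5, with 76 cells and a median of 3282.5 UMIs, included 62. The part of these cells in the differences between clusters was not tested.

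The cells with T were also divided by whether they held a Prdm14 UMI at full depth, without thinning, a division chosen after the values were seen. The 44 cells with Prdm14 had a median of 24113.5 UMIs and the 266 without it 22843. Prdm1, which encodes BLIMP1, stood at 29.4 CPM (20.1 to 41.5) with Prdm14 and 5.34 CPM (3.70 to 7.47) without. Tfap2c stood at 52.3 CPM (39.6 to 67.8) and 13.0 CPM (10.4 to 16.2), and Dnd1 at 196 CPM (170 to 224) and 53.8 CPM (48.2 to 59.8). The intervals of these 3 genes lay apart. Nanos3 stood at 11.9 CPM (6.36 to 20.4) against 6.13 CPM (4.36 to 8.38), and Kit at 9.18 CPM (4.40 to 16.9) against 3.14 CPM (1.92 to 4.86), with overlapping intervals. The later germ cell gene Ddx4 was not found in the cells with Prdm14, and Dazl had 2 UMIs there. T itself was 702 CPM against 505 CPM and Cdx2 153 against 62.1 CPM, so both were also higher in the cells with Prdm14. Naive genes were higher in them too, Klf2 at 201 against 56.3 CPM, Klf5 at 163 against 98.6 CPM, Zfp42 at 101 against 56.4 CPM and Dppa3 at 58.8 against 27.3 CPM. Some genes of the mesoderm list were lower, among them Mixl1 at 10.1 against 46.7 CPM, Mesp1 at 48.7 against 106 CPM and Hand1 at 25.7 against 80.3 CPM, whereas Lefty2 was higher, at 96.4 CPM (78.9 to 117) against 52.0 CPM (46.6 to 57.9), and Bmp4 stood at 27.5 against 32.4 CPM. The germ cell genes were thus not the only ones that differed between these cells.

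**Figure D5:**
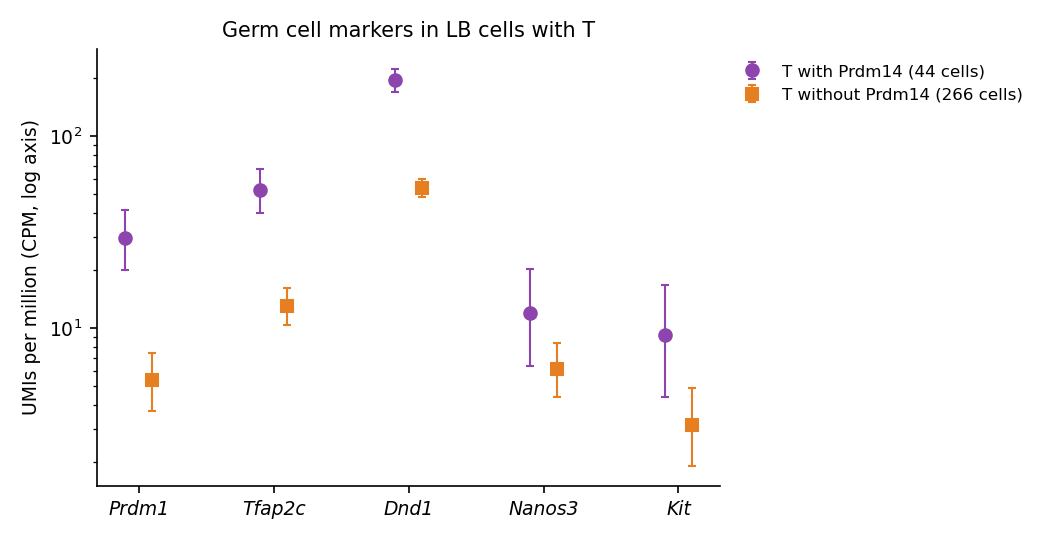
Levels in CPM, on a log axis, of Prdm1, Tfap2c, Dnd1, Nanos3 and Kit in LB cells with T, divided by whether the cell held a Prdm14 UMI, with exact Poisson 95% intervals. Prdm1, Tfap2c and Dnd1 are higher in the 44 cells with Prdm14, and the intervals of Nanos3 and Kit overlap.

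The cells with Hand1 were divided by Tbx3 in the same way, at full depth. The 96 cells with Tbx3 held 66.0 CPM of Foxf1 and 143 CPM of Msx2, genes of lateral and extraembryonic mesoderm, against 30.1 and 61.2 CPM in the 145 cells without it. Mesp1, a gene of nascent mesoderm, had the opposite order, 56.3 CPM with Tbx3 and 184 CPM without. Bmp4 stood at 180 and 169 CPM. Genes of the trophoblast list differed as well, Krt8 at 986 against 594 CPM, Krt7 at 17.2 against 7.59 CPM and Tfap2a at 14.3 against 6.46 CPM, while Cdx2 was at 129 against 219 CPM. Hand1 itself was at 685 CPM with Tbx3 and 427 CPM without. The cells with Tbx3 were deeper, with a median of 28906.5 UMIs against 23771, and the part of depth in these values was not tested.

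Within the LB cells that lacked T, Hand1 and Fgf5, Tfcp2l1 was found more often in cells with Esrrb than in cells without it. At the thinned depth Tfcp2l1 was found in 25.0% of the 164 cells with Esrrb (18.6 to 32.3) and in 11.6% of those without (9.76 to 13.8). In LBPXRS the shares were 39.3% (35.6 to 43.1) and 37.6% (35.5 to 39.8), with overlapping intervals. Tbx3 in the same LB cells was found in 11.0% of cells with Esrrb and in 10.3% of those without. LB held cells of several states, with Esrrb and Tfcp2l1 at 46.5 and 42.0 CPM in cluster 1 but 3.89 and 4.13 CPM in cluster 2. The part of this mix in the shares was not tested.

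Across the 13 clusters of both libraries, the genes with the most similar levels were named for each factor from 4890 genes with a mean of at least 20 CPM. The measure was Pearson's r of log2(CPM + 1), given as a description since clusters of 1 library share its RNA pool and its depth. For Esrrb these were Npr1 (r = 0.994), Mybl2 (0.991) and 4930566F21Rik (0.987), and for Tfcp2l1 Morc1 (0.992), Ly6g6e (0.991) and Jam2 (0.988). For Nr5a2 they were Stk38 (0.947), Mylpf (0.941) and Zfp296 (0.941). Tbx3 had less similar neighbours, Copz2 (0.889), Gabbr1 (0.864) and Baz2b (0.862). For Prdm14 they were Tfap2c (0.931), Ldhb (0.910) and Txnip (0.901), and Tfap2c had r = 0.896 within the 7 LB clusters and 0.733 within the 6 LBPXRS clusters. Several of these values were far lower within LBPXRS, with r = -0.01 for Esrrb and 4930566F21Rik, -0.44 for Tbx3 and Copz2, -0.02 for Prdm14 and Ldhb and 0.269 for Tfcp2l1 and Morc1.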

How the data were processed

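Both 10x droplet libraries were analysed from the deposited gene-by-barcode matrices, which hold whole UMI counts, not normalized. The authors made these counts with Cell Ranger 4.0.0 on mm10, per the submitters' processing notes, and the annotation and strand setting are not given in the sources used here. Barcodes with under 1000 genes or over 10% mitochondrial UMIs were left out (225 in LB, 406 in LBPXRS). Scrublet marked 12 LB and 14 LBPXRS cells, which were kept. Counts were summed per library or group of cells and given as CPM with exact Poisson 95% intervals, and shares with exact Clopper-Pearson intervals. Cells were thinned to 5000 UMIs before they were called positive. Clusters used scanpy 1.11.5 (2000 variable genes, 30 principal components, 15 neighbours, Leiden resolution 0.5). TMM factors came from edgeR 4.0.16 and no model was fitted. Summing and calling were tested on simulated counts. Besides the 5 factors, T, Hand1 and Fgf5, values were to be given for at most 3 genes of highest level in each list and for the 3 genes most like each factor. Klf4, Tcf7l1, Axin2, Dnmt3a, Dnmt3l, Gbx2, Nanog, Tbx2, Foxf1, Msx2, Mesp1, Bmp4 and the germ cell genes were chosen after their values were seen. So were the other genes printed for the cells divided by Prdm14 or Tbx3, among them Mixl1, Lefty2, Dppa3, Krt7 and Tfap2a. The members and lists were chosen with earlier results of these data known.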

Additional observations from a re-analysis of the deposited data

Results flagged for a closer look

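The barcodes left out of the report's comparisons carried RNA of the factors too. In the 406 barcodes left out of LBPXRS, Tfcp2l1 stood at 113 CPM (89.5 to 140) from 82 UMIs, against 33.8 CPM (21.9 to 49.9) from 25 UMIs in the 225 left out of LB. Tbx3 stood at 100.2 CPM (78.6 to 126) from 73 UMIs, against 24.3 CPM from 18 UMIs. These levels drew attention because they lay above those of LB in barcodes that the comparisons of the report left out.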

How the results depend on the processing

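No paired analysis was possible because each condition has 1 library. Over the alternatives tried, 205 of 240 ratios of single factors moved by less than their counting interval, 35 moved by more and 0 changed sign. For LBPXRS against LB, the median log2 difference of the 5 factors, 1.40, became 1.55 with TMM factors. With LB restricted to its naive pluripotent-like cluster, an alternative added after seeing the data, it became 0.82, with 2 factors higher, 1 lower and 483 genes lower in place of 875. Without a minimum level, 1117 genes were higher and 1561 lower, in place of 669 and 875. Among cells without T, Hand1 and Fgf5 the median, 1.14, became 1.03 when positive cells needed 2 UMIs without thinning. For cells with T the median, -2.48, became -2.13 both with at least 2000 genes and 0.5% to 10% mitochondrial UMIs and with another seed of thinning, and -2.22 with thinning to 10000 UMIs. Without the 5% deepest cells 1 factor was higher, Prdm14 at 1.04. For cells with Hand1 the median over all 5 factors, -2.87, became -2.61 with all deposited barcodes, -2.63 without cells marked by Scrublet and -2.47 with thinning to 10000 UMIs, and in the other direction -3.59 with a pseudocount of 0.1. The cause of these shifts was not tested. Among cells with Fgf5, Esrrb ranged from -2.95 to -1.65, Tbx3 from -3.82 to -2.17, Nr5a2 from -3.99 to -1.90 and Tfcp2l1 from -3.93 to -0.85, and the count of lower factors fell from 4 to 3 at -0.85. The end at -3.99 is that of 0 UMIs with 1 CPM added and not a measured ratio. Thinning to 10000 UMIs moved all 10 shares of cells in both libraries, and 11 of 20 highest and lowest cluster levels moved under the other clustering settings. Prdm14 and Nr5a2 rest on few UMIs, and so do the levels in the 36 cells with Fgf5.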
